A study of Mus musculus with 49 samples.

Results

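The 84 genes described here are nuclear-encoded genes of the mitochondrial respiratory chain, read across methods and cell types of the mouse nucleus accumbens (NAc). They were chosen by symbol alone, as the protein-coding genes whose symbol starts with Ndufa, Ndufb, Ndufc, Ndufs or Ndufv and a digit, is Sdha, Sdhb, Sdhc or Sdhd, or starts with Uqcr, with Cox4 to Cox8, or with Atp5. The symbol rule itself reads no measured value, but the genes were chosen with earlier results of these data known. They are 84 of 52636 genes in the count table, of which 21896 were protein-coding. By symbol, 37 belong to complex I, 4 to complex II, 8 to complex III, 18 to complex IV and 17 to complex V. A further 12 entries with such a symbol were pseudogenes or non-coding and were left out. Some symbols carry proteins with another placement: Ndufa4 is now counted with cytochrome c oxidase, Cox7a2l acts in the joining of complexes, and Atp5s is not a subunit of the ATP synthase.

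RNA was sequenced from medium spiny neurons that carry the dopamine receptor D1 (D1-MSNs) or D2 (D2-MSNs) of C57BL/6J mice, in 47 libraries. For whole cell-FACS, fresh tissue was treated with papain and sorted on a fluorophore of the cytoplasm driven by the Drd1 or Drd2 promoter (8 D1 and 6 D2 libraries, male). In nuclear-FACS, nuclei of Drd1-cre or Drd2-cre mice crossed to Thy1-loxPSTOPloxP-EGFP-F were sorted from frozen tissue (6 D1 and 5 D2, male). In RiboTag, polysomes of the same Cre drivers crossed to Rpl22-loxPexon4loxP-exon4-HA were immunoprecipitated from fresh tissue (6 D1 and 6 D2 labelled male, 5 D1 and 5 D2 labelled female). Ages were not given in the sources used here, and the study states that each sample came from its own mouse. Cre drivers mark every cell in which the promoter has been active, and method cannot be told apart from mouse line, tissue state and preparation. For whole cell samples the sample titles name 8 D1 and 8 D2, while the columns of the table name 9 D1 and 7 D2 runs. The study counts 9 D1 and 7 D2 whole cell samples. The column names were followed here, and a second run of D1 number 1 and a second lane of D2 number 3 were added to their libraries. The chi-square per gene between the runs of D1 number 1 was 6.895, against 1.036 between the lanes of D2 number 3. The D1 runs thus differed more than the lanes did, and whether they are from the same mouse is uncertain.

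The respiratory chain passes electrons from NADH (complex I) and succinate (complex II) through ubiquinone, complex III and cytochrome c to oxygen at complex IV, and ATP synthase (complex V) uses the proton gradient made on the way. Each complex except complex II also holds subunits encoded in the mitochondrial genome, so nuclear and mitochondrial transcripts serve the same machines. Neurons depend on this pathway for the ion pumping that follows synaptic activity, and several complex IV subunits come as pairs of a general isoform and an isoform typical of muscle, testis or low oxygen. The c subunit of ATP synthase is made from several genes, Atp5g1, Atp5g2 and Atp5g3, that give the same mature protein.

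Library depth ran from 3701255 to 68777008 counts, and 3 counts, the smallest number read as a signal here, corresponded to 0.0436 to 0.811 CPM (counts scaled to the library total). Intervals and floors of this kind cover counting error only. Genes of olfactory and vomeronasal receptors, which the brain should hardly use, gave a background density that made up 0.578 to 22.2% of the counts in nuclear D1 libraries, 32.4 to 52.2% in nuclear D2, 13.5 to 52.4% in whole cell D1, 8.33 to 36.7% in whole cell D2 and at most 0.0631% in RiboTag libraries. The 10 highest genes took 84.9 to 88.3% of RiboTag counts, 20.3 to 66.9% of nuclear D1 counts and 5.23 to 13.9% of nuclear D2 counts. Of 12 RiboTag libraries labelled male, 6 had sex-linked transcripts that went against the label. Drd1 and Drd2 were higher in their own cell type in every method, but in nuclear libraries Penk, a marker of D2-MSNs, was lower in D2 than in D1 (log2 change -2.44 ± 0.46, SE, adjusted p = 0.00810 by edgeR's quasi-likelihood test with Benjamini-Hochberg adjustment). Of 4 D2-MSN markers tested in nuclear libraries, 1 was higher and 1 lower in D2 (median -0.61). Of 4 D1-MSN markers tested there, 1 was lower in D2 (median -0.64), beside 10.6% of all genes lower and 7.29% higher. In whole cell and RiboTag libraries, all 5 markers of each list were called in their own cell type.

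Levels are given as FPKM, fragments scaled to the length of the gene span and to library size, with library sizes set by TMM over all 47 libraries. The whole gene body was counted, so the span is the matching length, and introns add to the level. Summed over the 84 genes, RiboTag libraries held the most: D1 labelled male had 306.8 ± 10.3 (SD, n = 6), D2 labelled male 310.6 ± 14.8 (SD, n = 6), D1 labelled female 297.8 ± 13.8 (SD, n = 5) and D2 labelled female 323.2 ± 9.94 (SD, n = 5). Whole cell D1 libraries held 119.2 ± 57.8 (SD, n = 8), whole cell D2 libraries 93.0 ± 46.1 (SD, n = 6) and nuclear D1 libraries 94.8 ± 54.0 (SD, n = 6). The nuclear D2 libraries were lowest, at 28.0 ± 3.10 (SD, n = 5). The RiboTag libraries, from 283.7 to 334.2, did not overlap with any sorted library, and the nuclear D2 libraries, from 23.4 to 31.0, lay below all others, the next being a nuclear D1 library at 40.5 and a whole cell D1 library at 39.3. Whole cell D1, whole cell D2 and nuclear D1 overlapped throughout, from 39.3 to 195.1, and their means differed by less than 1 SD of either group.

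**Figure D1:**
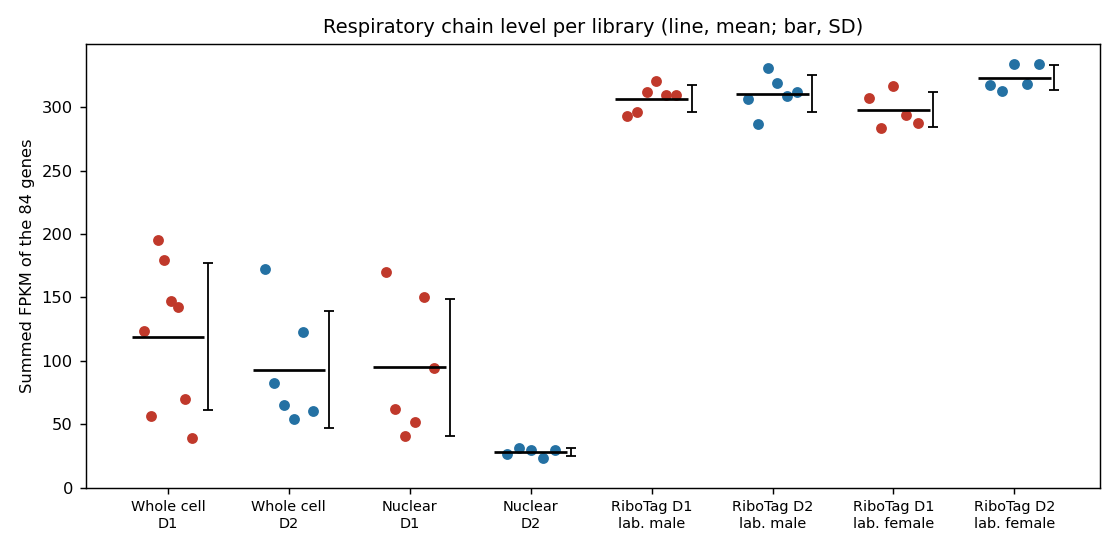
Summed FPKM of the 84 genes (y axis) in each of 47 libraries, by method and cell type (x axis, lab. for labelled). Points are libraries, lines are group means and bars are 1 SD. The RiboTag libraries lie above 283 and the 5 nuclear D2 libraries between 23.4 and 31.0.

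A share of the counts outside the 10 highest genes uses no TMM, but leaving those genes out is itself a choice of scale. On that scale, the 84 genes made up 5.14 ± 0.14 (SD) of every 1000 counts in RiboTag D1 labelled male. The share was 3.29 ± 1.22 (SD) in whole cell D1 and 2.59 ± 0.97 (SD) in whole cell D2, and 1.88 ± 0.63 (SD) in nuclear D1 and 1.08 ± 0.04 (SD) in nuclear D2. That order matched the order of the summed FPKM except that whole cell D2 and nuclear D1 changed places within their spread. It rested on leaving out the 10 highest genes, which took a mean of 87.35% of counts in RiboTag D1 labelled male and 5.05% in whole cell D1. Over all counts the share was lower in RiboTag. D1 labelled male had a mean of 21840 counts on the 84 genes and 33790000 in total, against 47180 and 14680000 in whole cell D1. The lower position of nuclear D2 against nuclear D1 was also seen in the other sums: 61.7 against 231.5 with library sizes set within the method, 146.9 against 365.3 with summed exons as the length and 40.1 against 98.0 after subtraction of the background.

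Within the sorted libraries the summed level moved with library properties, whose part in it was not tested. Nuclear D1 libraries numbered 1 to 6 had sums of 169.9, 62.0, 40.5, 52.0, 150.1 and 94.1. The 3 loci with ribosomal RNA sequence (Gm42418, AY036118 and CT010467.1) took 55.9, 26.5, 16.4, 16.9, 49.1 and 52.8% of the counts in the same libraries. The 3 nuclear D1 libraries with the highest sums, numbers 1, 5 and 6, were those with the largest share of these loci. Nuclear D2 libraries numbered 1, 2, 3, 5 and 7 had sums of 26.4, 31.0, 29.8, 23.4 and 29.6 beside a background of 47.3, 32.4, 34.3, 52.2 and 33.7% of counts. In these libraries, 46 to 76 of the 84 genes exceeded 2 times the background density, against 72 to 81 in all other libraries. Among whole cell libraries, the lowest sum (39.3, D1 number 8) came with the highest background (52.4%).

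**Figure D2:**
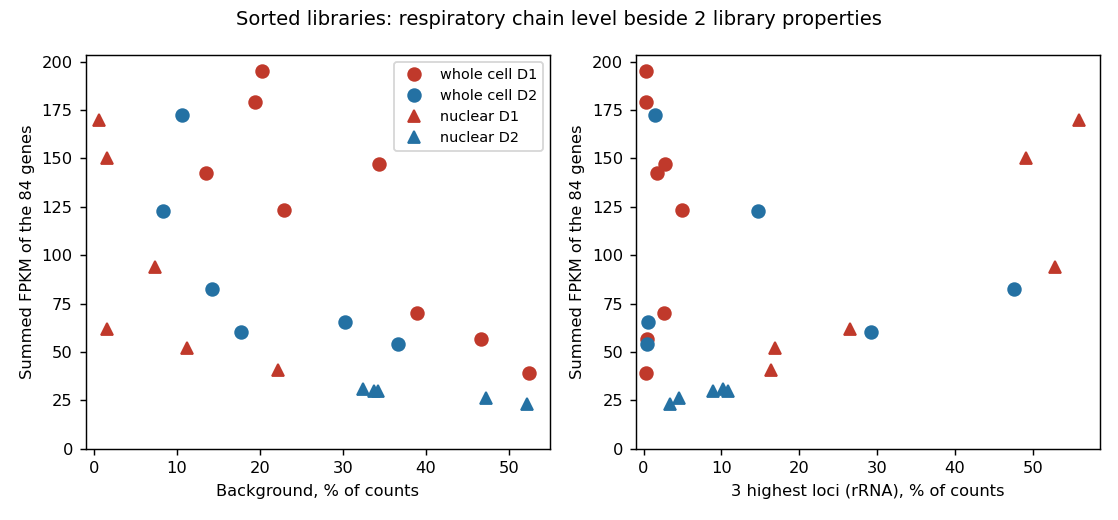
Summed FPKM of the 84 genes (y axis) in whole cell (circles) and nuclear (triangles) libraries against the share of counts that the background takes (left) and the share of the 3 highest ribosomal RNA loci (right), both in percent of counts. The 5 nuclear D2 libraries sit at a background of 32.4 to 52.2% and sums of at most 31.0.

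The division of the sum among complexes was similar in all 8 groups. Complex V supplied 44.4 to 47.9% of the summed FPKM, complex I 24.5 to 30.6%, complex IV 13.3 to 21.4%, complex III 6.56 to 8.76% and complex II 2.12 to 3.10%. Complex I has the most genes but the median gene of complex I was low (1.53 FPKM in RiboTag D1 labelled male) beside the median gene of complex V (3.19). The highest genes were few. Atp5b, the catalytic β subunit of ATP synthase, was highest in whole cell libraries (11.8, mean FPKM over both cell types) and in RiboTag libraries labelled male (51.6). It was followed in whole cell libraries by Atp5o (10.8), the stalk subunit that resists torque, and Atp5a1 (7.63), the α subunit. In RiboTag it was followed by Cox5b (32.8), a matrix-side subunit of complex IV, and Atp5a1 (25.2). Nuclear libraries had the order Atp5o (11.9), Atp5b (4.89) and Cox5b (3.63).

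At the other end stood isoforms known from other tissues. Cox7b2 (0.0748), Cox8c (0.0777) and Cox7a1 (0.0840) had the lowest mean FPKM in whole cell libraries, and Cox7b2 (0.0651), Cox7a1 (0.120) and Cox8c (0.122) in nuclear libraries. These levels were close to the background of 0.0520 to 0.0634 FPKM in whole cell groups and of 0.0291 and 0.0805 in nuclear D1 and D2. In RiboTag libraries, Cox8b and Cox8c had 0 counts in all 22 libraries and Cox6b2 had 0 counts in the 12 labelled male, which allows up to 3 counts a library, or 0.0657 to 0.125 CPM. Cox7b2 had 0 to 8 counts in a RiboTag library and 137 to 1027 in a whole cell library. With summed exons as the length, Cox7b2 ranked 4th of 84 in whole cell and 2nd in nuclear libraries, where exons are 0.51% of its span, so its rank depended on the length chosen.

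**Figure D3:**
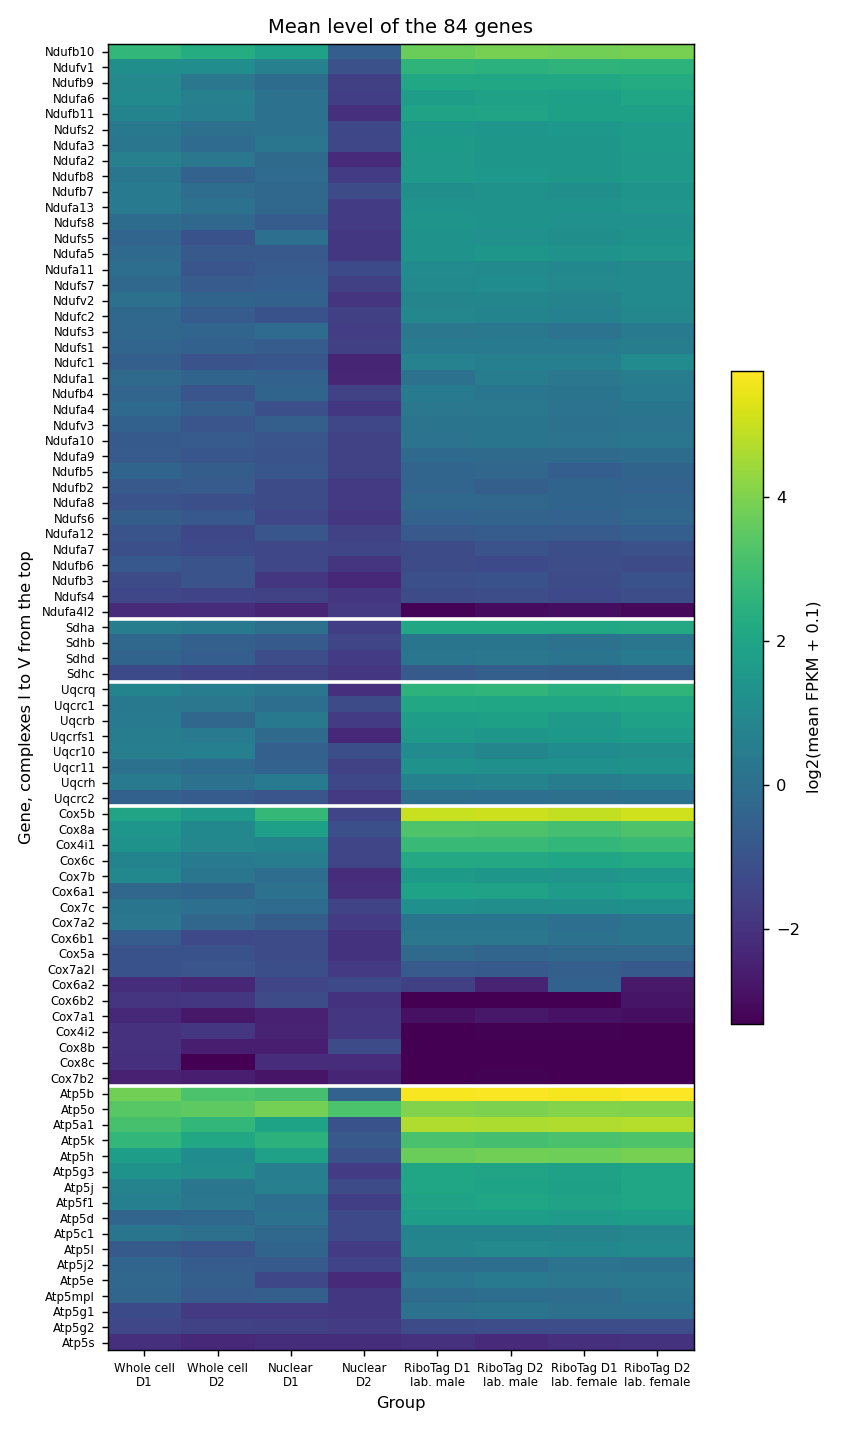
Mean level of each of the 84 genes (rows, complexes I to V from the top, separated by white lines) in 8 groups (columns), as log2 of mean FPKM plus 0.1. Yellow is high and dark blue low: Atp5b and Cox5b are brightest in RiboTag columns, the nuclear D2 column is darker than nuclear D1 for most genes, and Atp5o stays bright in every column.

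Some of these genes share their span with another gene, and a fragment in the shared part was counted for both without regard to strand. Cox4i1 lies wholly inside Gm20388, Ndufa13 inside Yjefn3 and Cox6a2 inside Itgad, so their counts are uncertain. The span of Atp5o overlaps the antisense transcript Gm15976 over 3422 bases (52.9%), that of Ndufb8 overlaps Gm20538 over 4260 bases (62.0%), that of Ndufs1 overlaps Ino80dos over 14695 bases (44.2%), and that of Cox6c overlaps Vps13b over 5344 bases (43.2%). Fragments in these parts cannot be assigned to either gene, so all levels and changes of these genes, Atp5o among them, are uncertain too. Atp5o, high in every method, was at 11.6 to 17.7 FPKM in nuclear D1, 7.43 to 10.2 in nuclear D2, 7.84 to 14.1 in whole cell D1, 9.16 to 15.3 in whole cell D2 and 14.6 to 18 in RiboTag libraries.

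The first comparison asked how D1- and D2-MSNs differ within a method. In nuclear libraries, 22 of the 84 genes were lower in D2 than in D1, and none was higher, by edgeR's quasi-likelihood test with Benjamini-Hochberg adjustment over all genes tested. They came from all complexes: 5 of 31 tested in complex I, 1 of 3 in complex II, 4 of 8 in complex III, 5 of 13 in complex IV and 7 of 13 in complex V. Of all genes tested, 10.6% were lower in D2 and 7.29% were higher. The count is bound to the filter: 68 of the 84 genes were tested, and 53 of these passed the minimum of 1 FPKM through D1 libraries alone, a choice that favours genes higher in D1, so that the count is a description and no support. Without that minimum, 56 of 83 genes tested were lower in D2 and none was higher, against 19.4% of all genes. The scale moved as well, since library sizes set on the genes past the minimum placed D2 higher by 1.01 on the log2 scale than the sizes behind the levels above. The median change was -0.56 with the minimum (all protein-coding genes -0.04) and -1.52 without it (all protein-coding genes 0.07).

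**Figure D4:**
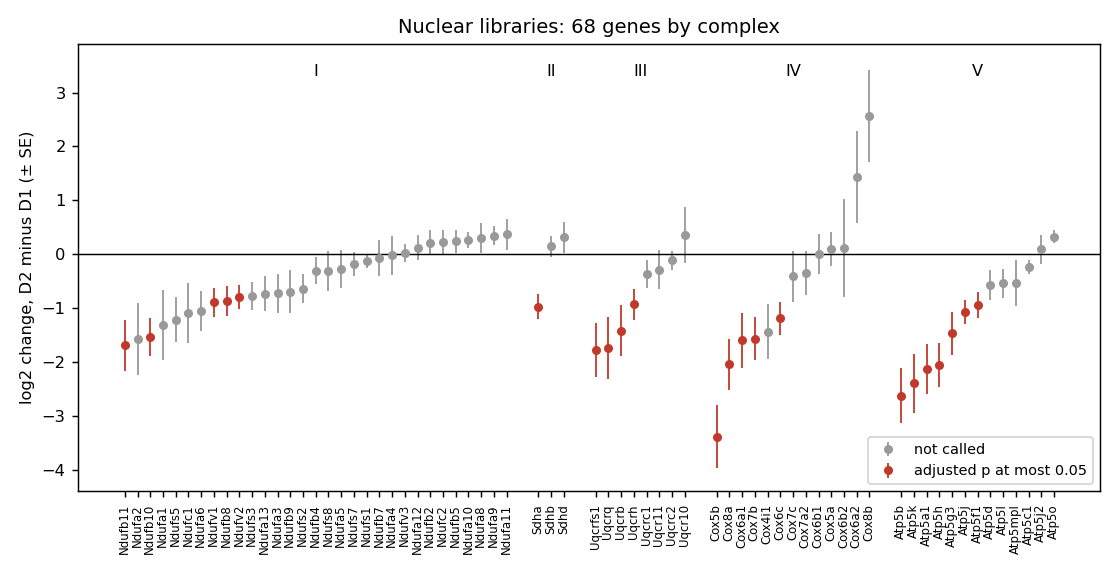
Log2 change from D1 to D2 in nuclear libraries (y axis, bars are ± SE) for the 68 genes tested, ordered within complexes I to V (x axis). Red points passed an adjusted p of at most 0.05: 22 genes, all below 0, from Cox5b at -3.39 to Ndufv2 at -0.79.

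In the description of the complexes that follows, values are FPKM with library sizes set on the genes of this test, so that they match the fold changes. On the scale of the levels above, Cox5b had means of 6.43 in nuclear D1 and 0.275 in nuclear D2. The limit of the filter holds for each gene named, since most genes tested passed it through D1 libraries alone. The changes and adjusted p values that follow describe the calls and are no support for them. In complex IV, the enzyme that reduces oxygen, Cox5b had the largest change of the 22. It was at 51.7, 7.67, 6.97, 7.09, 48.1 and 35.6 in nuclear D1 libraries 1 to 6 and at 2.42, 2.72, 3.18, 1.65 and 2.26 in the 5 D2 libraries. All D1 libraries lay above all D2 libraries, and numbers 1, 5 and 6 lay far above the other D1 libraries. The log2 change was -3.39 ± 0.58 (SE, adjusted p = 0.00810), or 10.45-fold lower in D2. Cox8a, the general isoform of a small subunit, was at 4.63 to 27.1 in D1 and 2.30 to 4.21 in D2 (-2.04 ± 0.47, SE, adjusted p = 0.0125). Cox6a1 (-1.60), Cox7b (-1.57) and Cox6c (-1.19), small subunits around the core, also passed, and for Cox6a1 the groups overlapped, at 0.769 to 6.99 in D1 and 0.756 to 1.64 in D2. Cox4i1, the isoform of the largest nuclear-encoded subunit found in most tissues, was at 1.86 to 12.8 in D1 and 2.04 to 3.48 in D2 and did not pass (-1.43 ± 0.50, SE, adjusted p = 0.0608). Cox5a, which binds beside Cox5b, was at 0.561 to 2.11 and 0.792 to 1.86 (0.10 ± 0.32, SE, adjusted p = 0.844).

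In complex V, both subunits of the catalytic head were called lower in D2, under the same limit of the filter. Atp5b was at 64.7, 15.1, 9.81, 8.28, 55.7 and 55.8 in D1 and at 5.38, 6.99, 6.53, 4.27 and 4.87 in D2, and the groups did not overlap. Its log2 change was -2.62 ± 0.52 (SE, adjusted p = 0.00810), or 6.17-fold lower in D2. Atp5a1 was at 4.96 to 28.5 in D1 and 2.72 to 4.21 in D2, also without overlap (-2.13 ± 0.46, SE, adjusted p = 0.00995). Atp5k, the e subunit of the membrane part that helps dimers form, fell by 2.39 ± 0.55 on the log2 scale (SE, adjusted p = 0.0121), and Atp5h, the d subunit of the peripheral stalk, fell by 2.06 ± 0.40 (SE, adjusted p = 0.00810). Atp5g3 (-1.47), a gene for the c ring, and the stalk genes Atp5j (-1.07) and Atp5f1 (-0.94) passed with smaller changes. Atp5o did not follow them on this scale: it was at 53.4 to 75.5 in D1 and 77.3 to 86.2 in D2 (0.32 ± 0.12, SE, adjusted p = 0.0733). With library sizes over all 47 libraries it was lower in D2, at 11.6 to 17.7 in D1 and 7.43 to 10.2 in D2. The direction of its change thus depended on the scale. The γ subunit gene Atp5c1 was at 2.71 to 3.74 and 2.24 to 2.88 and did not pass (-0.23, adjusted p = 0.218).

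In complex III, which passes electrons from ubiquinol to cytochrome c, Uqcrfs1, the Rieske iron-sulfur protein, was at 1.03 to 5.78 in D1 and 0.716 to 1.5 in D2, with overlap (-1.78 ± 0.50, SE, adjusted p = 0.0274). Uqcrq (-1.74), Uqcrb (-1.42) and Uqcrh (-0.93), small subunits, also passed, and the core subunit Uqcrc1 was at 2.45 to 5.92 and 2.48 to 4.23 and did not (-0.37, adjusted p = 0.326). In complex II, Sdha, the flavoprotein that oxidizes succinate, was at 2.43 to 5.81 in D1 and 1.19 to 2.44 in D2 (-0.97 ± 0.23, SE, adjusted p = 0.0131). Its partner Sdhb, the iron-sulfur subunit, was at 1.21 to 3.01 and 2.38 to 2.56 (0.15 ± 0.19, SE, adjusted p = 0.615).

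In complex I, the NADH dehydrogenase, 5 genes passed. Ndufb11, an accessory subunit of the membrane arm, was at 1.44 to 7.27 in D1 and 1.09 to 1.45 in D2 (-1.69 ± 0.48, SE, adjusted p = 0.0283). Ndufb10 (-1.54) and Ndufb8 (-0.86), also of the membrane arm, and Ndufv1 (-0.89) and Ndufv2 (-0.79), the NADH-binding pair at the tip, were the others. Ndufs1, the largest subunit of the same arm, was at 1.97 to 2.60 in D1 and 1.88 to 2.30 in D2 (-0.12 ± 0.13, SE, adjusted p = 0.521).

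The count of calls in nuclear libraries depended on the libraries used. Without D1 numbers 1, 5 and 6, in which the 10 highest genes took over 50% of the counts, 5 of 59 genes tested were lower in D2 (5.02% of all genes) and the median change was -0.14. Without D2 numbers 1 and 5, in which the background passed 40% of the counts, none of 65 passed, although 22 had a negative change at an unadjusted p under 0.05 and the median change was -0.64, so that the calls were lost and not the size. Both settings were chosen after seeing the data. Leaving out 1 library at a time gave 15 to 26 genes for D1 libraries and 9 to 12 for D2 libraries, so that each of D2 numbers 1, 2, 3, 5 and 7 moved the count by over 1.5 times. In the same test, 2 of 5 general MSN markers were lower in D2 (median -0.72), among them Ppp1r1b (-1.97), and of 4 tested astrocyte markers 1 was lower (median -0.36). None of 5 oligodendrocyte markers passed (median -0.08). With library sizes over all 47 libraries, on which nuclear D2 lay 1.01 lower on the log2 scale, the MSN markers summed to 6.52 to 32.6 FPKM in D1 and 1.37 to 5.20 in D2. On that scale the astrocyte markers summed to 1.27 to 2.97 and 0.906 to 1.23, and the oligodendrocyte markers to 6.86 to 22.5 and 2.30 to 6.53. Their part in the result was not tested. In these bulk libraries fewer cells of a type and less RNA per cell cannot be told apart.

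In whole cell libraries, none of 79 genes tested passed (edgeR's quasi-likelihood test with Benjamini-Hochberg adjustment; 1.49% of all genes did). At an unadjusted p under 0.05, 21 were lower in D2 and none was higher, while 1850 of all 16757 genes were lower and 610 higher. DESeq2 also called 0 of the 79. The median change was -0.45, against -0.15 over protein-coding genes. Atp5b was at 2.93 to 24.6 FPKM in D1 and 4.02 to 16.3 in D2 (-0.77 ± 0.31, SE, adjusted p = 0.224), and Cox5b at 0.741 to 6.20 and 1.70 to 5.05 (-0.56 ± 0.31, SE, adjusted p = 0.444). The lowest adjusted p was that of Ndufa11, a membrane-arm subunit of complex I (-1.01 ± 0.31, SE, adjusted p = 0.0984). The spread was wide, with a median SD between libraries of 0.85 in D1 and 0.75 in D2 on the log2 scale. Without D1 numbers 2 and 8, the libraries with a background over 40%, 18 of 78 genes tested were lower in D2, a setting chosen after seeing the data. Calls also rose over all genes, with 1014 of 15393 lower in D2, against 181 of 16757 with all libraries.

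In RiboTag libraries the cell types lay close together. None of 75 genes tested passed in libraries labelled male (9.28% of all genes did) or labelled female (4.51%), by the same edgeR test. At an unadjusted p under 0.05, 4 were higher and 1 lower in D2 in those labelled male and 8 were higher in those labelled female. Of all genes, 708 of 6800 were higher and 757 lower in those labelled male, and 539 of 7067 were higher and 596 lower in those labelled female. The median change was -0.01 labelled male and 0.08 labelled female. The precision was high here, with a median SD of 0.12 to 0.16 on the log2 scale, and the simulated test recovered 100% of changes of 1.5 in RiboTag libraries labelled male, against 44.5% in nuclear and 44.0% in whole cell libraries. Atp5b was at 45.5 to 54.1 FPKM in D1 and 47.8 to 55.5 in D2 labelled male (0.04 ± 0.04, SE, adjusted p = 0.646), and Cox5b at 30.4 to 32.6 and 30.0 to 36.0 (0.06 ± 0.04, SE, adjusted p = 0.440). The largest difference in those labelled male was that of Ndufa1, an accessory subunit of complex I (0.47 ± 0.16, SE, adjusted p = 0.0689). In those labelled female, Ndufs3, a core subunit of complex I, had the lowest adjusted p (0.31 ± 0.09, SE, adjusted p = 0.0621).

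**Figure D5:**
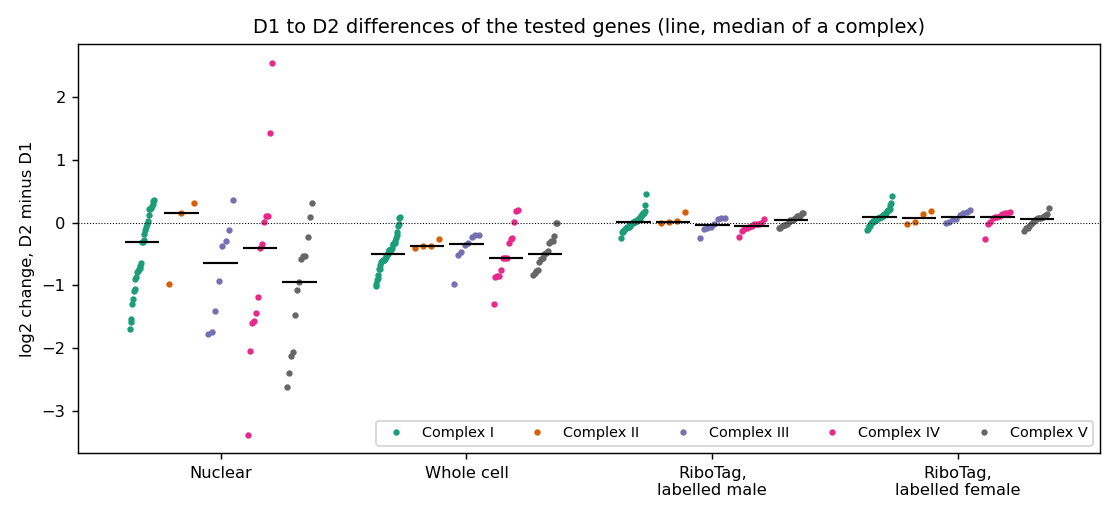
Log2 change from D1 to D2 (y axis) of the genes tested in each method (x axis), coloured by complex, with a black line at the median of each complex. Nuclear points spread from -3.39 (Cox5b) to 2.56 (Cox8b), which did not pass, whole cell medians lie between -0.56 and -0.34, and RiboTag points cluster at 0.

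Labels of sex made no difference that passed. Across RiboTag libraries, 0 of 75 genes differed between those labelled female and those labelled male (0.0835% of all genes did) and 0 had a D1 to D2 difference that depended on the label (0.0% of all genes), by edgeR's quasi-likelihood test. At an unadjusted p under 0.05 there were 5 in each case. Of all 7184 genes, 286 were higher and 326 lower in libraries labelled female at that threshold. For the dependence on the label, 250 were higher and 260 lower. Cox6a1 had the lowest p, at -0.22 ± 0.07 in female minus male (SE, adjusted p = 0.376). Since 6 libraries labelled male went against the label, this comparison is one of labels.

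The second comparison asked how the methods differ within a cell type, in male-labelled libraries, in a fit over 6 groups. In D1-MSNs, nuclear and whole cell libraries differed in 2 of 83 genes tested. Atp5o was higher in nuclear libraries by 0.63 ± 0.14 on the log2 scale (SE, adjusted p = 0.00147), and Ndufs6, a complex I subunit with a zinc site, was lower by edgeR's quasi-likelihood test (-0.79 ± 0.22, SE, adjusted p = 0.0119). Of all genes, 11.5% were higher and 5.79% lower. The median of the 83 genes was -0.28, against -0.19 over protein-coding genes. These counts rested on the scaling: with DESeq2's size factors 15 genes were lower in nuclear libraries, and with library sizes without the 10 highest genes 51 were. The calls over all 36239 genes moved as well, with 3039 and 8017 lower in these settings.

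In D2-MSNs, 67 of 83 genes were lower in nuclear than in whole cell libraries and none was higher, while 13.8% of all genes were lower and 4.45% higher. The median was -1.53, against 0.09 over protein-coding genes. Atp5a1 had the largest change (-4.10 ± 0.53, SE, adjusted p = 5.78e-07), with 0.235 to 0.534 FPKM in nuclear and 3.32 to 12.2 in whole cell libraries, with library sizes over all 47 libraries. Atp5b (-3.88), Uqcrfs1 (-3.74), Ndufb11 (-3.41) and Cox5b (-3.41) followed. Atp5o was the exception among the high genes (-0.40 ± 0.16, SE, adjusted p = 0.0872, by edgeR's quasi-likelihood test).

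RiboTag libraries held more of these transcripts than whole cell libraries on the scale of this fit. In D1-MSNs, 65 of 83 genes were higher and 5 lower, beside 20.8% and 57.0% of all genes. In D2-MSNs, 68 were higher and 3 lower, beside 20.1% and 55.7%. The medians were 1.18 in D1 and 1.47 in D2, against -0.82 and -0.91 over protein-coding genes and -2.38 and -2.30 over all genes. Cox5b rose most, by 3.39 ± 0.44 in D1 (SE, adjusted p = 1.46e-08) and 3.77 ± 0.50 in D2 (SE, adjusted p = 2.97e-08, edgeR). Cox6a1 (2.76), Atp5d (2.59), Atp5h (2.35) and Atp5b (2.22) followed in D1, and Atp5h (2.98), Ndufs5 (2.78), Atp5b (2.77) and Ndufa5 (2.69) in D2. The core genes Sdha (2.03 and 2.04), Uqcrc1 (2.17 and 2.06), Cox4i1 (1.88 and 2.22) and Ndufs1 (1.18 and 1.25) were higher in both cell types, but Ndufs1 changed sign (-0.40 and -0.26) with only the genes past the FPKM filters of all methods.

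The genes lower in RiboTag were the isoforms of other tissues. Cox4i2, the isoform of low oxygen, had at most 1 count in any RiboTag library and 10 to 280 counts in whole cell libraries. The groups did not overlap, and a fitted change at counts this low depends on the prior count. Cox7b2, Cox6b2 and, in D1, Cox8b and Ndufa4l2 were the others called. In RiboTag libraries these 5 genes had 0 to 8 counts. Their means in whole cell groups ran from 0.0683 to 0.176 FPKM, beside a background of 0.0634 in D1 and 0.0520 in D2. That background was 0.000886 in RiboTag D1 and 0.000908 in RiboTag D2 labelled male, and its part in these differences was not tested. Settings that changed the scaling alone kept more genes higher than lower in RiboTag, from 30 higher and 11 lower (library sizes without the highest genes) to 76 and 4 (centred on protein-coding genes) in D1, and from 42 and 6 to 76 and 3 in D2. Over all 36239 genes, the same settings gave from 3376 higher and 26205 lower to 10934 and 15470 in D1. In D2 they gave from 4113 and 24792 to 10751 and 14608. With the scaling and the tests both on the 4620 genes past the FPKM filters of all methods, 65 of the 84 genes were tested, with 8 higher and 21 lower in RiboTag D1 and 21 higher and 14 lower in RiboTag D2. Of all 4620 genes, 1254 were higher and 1545 lower in D1, and 1427 were higher and 1443 lower in D2. The medians of the 65 genes were -0.14 in D1 and 0.09 in D2, against -0.12 and -0.05 over protein-coding genes.

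Nuclear libraries were lower than RiboTag libraries in both cell types, in 66 of 83 genes in D1 (17.8% of all genes) and 75 in D2 (23.0%). In each cell type 5 genes were higher in nuclear libraries (52.9% of all genes in D1 and 61.1% in D2), among them Cox7b2 and Cox4i2. These 2 genes had means of 0.0435 and 0.0841 FPKM in nuclear D1, beside a background of 0.0291. In nuclear D2 they were at 0.0910 and 0.176, beside 0.0805. The medians were -1.63 and -3.10. The largest changes were those of Atp5a1 (-2.90), Atp5b (-2.71) and Uqcrq (-2.58) in D1, and of Cox5b (-7.17), Atp5b (-6.64) and Atp5a1 (-6.28) in D2.

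Tests of the difference between these differences asked whether the D1 to D2 change depended on the method. Between nuclear and whole cell libraries it was lower in nuclear for 42 of 83 genes (16.7% of all genes), with Cox5b (-4.35), Atp5b (-3.38), Atp5k (-3.27), Uqcrfs1 (-3.15) and Atp5a1 (-3.13) first. Between nuclear and RiboTag libraries it was lower in nuclear for 48 (12.6%), with Cox5b (-4.73), Atp5b (-3.93), Atp5k (-3.66), Atp5h (-3.38) and Atp5a1 (-3.38) first. No gene went the other way. Between RiboTag and whole cell libraries, 0 of 83 passed (0.0993% of all genes did), and 1 had an unadjusted p under 0.05, by edgeR's quasi-likelihood test. Of all 36239 genes, 685 were higher and 915 lower at that unadjusted threshold. The counts of 42 and 48 share the nuclear libraries, and without the libraries whose 10 highest genes took over 50% of the counts they were 5 and 1. The counts over all genes in that setting are not given here.

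Ratios between genes within a library need no scaling between libraries, although at low counts they follow depth through the 0.5 added to each count. The log2 ratio of the counts of a pair, each divided by its gene span, was compared between cell types by a two-sided exact permutation test. Of 17 tests run, 6 had an adjusted p under 0.05, all in nuclear libraries and all with a lower ratio in D2. For the pairs of Cox8a with Cox8b, Cox6a1 with Cox6a2 and Cox7a2 with Cox7a1, the second gene had 0 counts in 4, 2 and 2 of the 6 D1 libraries, so that these ratios are bounds and no difference is read from them. For Cox4i1 and Cox4i2 the second gene had 1 to 5 counts in 3 of the 6 D1 libraries, and no difference is read there either. The genes of the c subunit had counts in every library. Atp5g3 had 255, 24, 195, 31, 42 and 20 counts in D1 libraries 1 to 6 and 104, 111, 110, 112 and 4 in the D2 libraries. Atp5g1 had 145, 11, 134, 9, 3 and 12 counts in D1 and 162, 169, 199, 178 and 22 in D2. Atp5g3 had more counts than Atp5g1 in all 6 D1 libraries and fewer in all 5 D2 libraries. Per length, the log2 ratio was 2.66 ± 1.15 in D1 and 0.23 ± 0.74 in D2 (SD, exact permutation p = 0.00433, adjusted p = 0.0184), and that of Atp5g3 to Atp5g2 was 2.30 ± 1.32 and 0.06 ± 0.81 (SD, exact permutation p = 0.00433, adjusted p = 0.0184). With library sizes over all 47 libraries, Atp5g3, Atp5g1 and Atp5g2 had mean levels of 0.208, 0.176 and 0.200 FPKM in nuclear D2 libraries, beside a background of 0.0805. In nuclear D1 libraries they had 1.39, 0.192 and 0.233, beside a background of 0.0291. The part of the background in the ratios was not tested, and no switch between these genes is read from them. None of the whole cell and RiboTag tests passed. Atp5g3 to Atp5g1 was at 2.05 ± 0.14 in RiboTag D1 and 1.93 ± 0.36 in RiboTag D2 labelled male (SD, n = 6 each, exact permutation p = 0.455).

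Other genes of the pathway were read from lists of subunits, assembly factors, citric acid cycle genes, regulators and mitochondrial genes. In nuclear libraries, 9 of 12 protein genes of the mitochondrial genome tested were lower in D2, with a median of -3.91, and none was higher, beside 10.6% of all genes lower and 7.29% higher. With library sizes over all 47 libraries the 13 such genes summed to 101.2 to 3615 FPKM in nuclear D1 (median 912.3) and 14.4 to 58.4 in nuclear D2. Whole cell D1 libraries had 219.4 to 1807 (median 389.2) and whole cell D2 libraries 147.4 to 482.1. Of the 13, 6 were higher and 5 lower in nuclear than in whole cell D1, beside 11.5 and 5.79% of all genes. The source of mitochondrial transcripts in libraries of sorted nuclei was not tested. Of 4 tested subunits and carriers outside the rule, Cycs, cytochrome c (-1.69), and Atpif1, the inhibitor of ATP synthase (-1.82), were lower. Of 24 tested assembly factors none passed, and of 13 genes of the citric acid cycle Mdh2 (-0.98) and Pdha1 (-1.39) were lower, a share near that of all genes. Among 3 regulators tested Esrra, a nuclear receptor of mitochondrial genes, was higher in D2 (0.56 ± 0.18, SE, adjusted p = 0.0485 by edgeR's quasi-likelihood test). In whole cell libraries 0 of 35 assembly factors, 0 of 15 cycle genes and 0 of 13 mitochondrial genes passed, beside 1.49% of all genes. There Tfam, which packs and transcribes mitochondrial DNA (-0.96), and Gabpa, an ETS factor of respiratory genes (-0.75), whose span overlaps that of Atp5j by 701 bases, were lower in D2 among 6 regulators tested. In RiboTag libraries, mt-Nd3 was lower in D2 labelled male (-0.44) and the assembly factor Cox20 was higher in D2 labelled female (0.66).

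Promoter sequence was searched for letters known from regulators of such genes. Promoters, taken as 250 bases before to 50 bases after the start, were found in RefSeq (GRCm38.p6) for 66 of the 84 genes. Letters of the NRF-1 type, GCGC followed by any base and TGCGC, on either strand, stood in 16 of 66 (24.2%), against 4.78% of 27025 promoters. Letters of the ETS type, CCGGAAG on either strand, stood in 15 (22.7%), against 9.12%. At least 1 of both stood in 27 (40.9%), against 13.0%, so that most of the 66 had neither. These differences in share were not tested. NRF-1 and the ETS factor GABP are known regulators of respiratory genes, and a match is a description of letters, not a site. Of genes tested in nuclear libraries, 7 of 23 with a match and 10 of 32 without were lower in D2. The windows below, read 5′ to 3′ along the gene with the match on either strand in capitals, are from 5 genes that were lower in nuclear D2, chosen after their values were seen:
Atp5h NRF-1 type, chr11:115420043-115420068, minus strand: ccccgacgGCGCAGGCGCcgcgcccg
Atp5h ETS type, chr11:115419943-115419965, minus strand: ggagagaaCTTCCGGcaactctc
Atp5k NRF-1 type, chr5:108434432-108434457, minus strand: tcactgcgGCGCATGCGCctttctgg
Cox6a1 NRF-1 type, chr5:115349103-115349128, minus strand: ggaacgggGCGCATGCGCgctctcgc
Cox6a1 ETS type, chr5:115348960-115348982, minus strand: catttccgCTTCCGGcgcgccgg
Sdha NRF-1 type, chr13:74350278-74350303, minus strand: ggcgtgttGCGCAGGCGCagaatctt
Uqcrh ETS type, chr4:116075071-116075088, minus strand: atgccgcaCTTCCGGcca
Cox5b and Atp5b, the genes with the largest nuclear changes, had neither run of letters in this window.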

How the data were processed

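Whole cell-FACS, nuclear-FACS and RiboTag libraries were sequenced as ribosomal RNA-depleted RNA. The authors deposited raw counts of fragments per gene, made with HISAT2 2.0.5 and featureCounts on GRCm38 according to the submitters' processing notes. Fragments were counted over the whole gene body, without strand, for every gene they overlapped, and fragments that mapped to several places were left out. The 49 columns were summed to 47 libraries, and 0 columns were left unused. Of the genes, 52489 (99.72%) matched the annotation.

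FPKM was computed here from the deposited counts on the gene span. Tests used edgeR 4.0.16 in R 4.3.3 (quasi-likelihood test, TMM, Benjamini-Hochberg adjustment over all genes tested, called at an adjusted p of at most 0.05), with DESeq2 1.42.0 as an alternative. Within a method, genes needed over 1 CPM in at least 2 libraries and at least 1 FPKM in 1 library (RiboTag 0.1 FPKM in 2), and at most 50000 FPKM. Comparisons between methods used the first filter alone. Isoform ratios used counts with 0.5 added, per length of the gene span, and pairs whose second gene had under 10 counts in most libraries were left out. Levels, ratios and plots were made in Python 3.11.15 (matplotlib 3.10.9, SciPy 1.17.1, NumPy 2.4.6, pandas 2.3.3). On simulated data with 200 genes changed by 1.5 on the log2 scale, 44.5% were recovered over 9864 genes in nuclear libraries, with 5.32% of calls false.

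The members and lists were chosen with earlier results of these data known. Named were 1 or more core genes of each complex, the isoform pairs with Cox7a2l, Cox7b, Cox7b2 and Cox8c, the 5 largest called changes in each direction of a comparison, and the 3 highest and 3 lowest genes of each method. Atp5c1, Atp5f1, Atp5j, Cox6c, Ndufa1, Ndufa11, Ndufa13, Ndufb8, Ndufb10, Ndufs3, Ndufv2, Uqcrb and Uqcrh were named after their values were seen. Alternatives were DESeq2's size factors, other filters, lengths and scalings, a replicate block, background subtraction and leaving out libraries. Those that leave out several libraries together were chosen after seeing the data.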

Additional observations from a re-analysis of the deposited data

Results flagged for a closer look

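In groups of 4 to 10 libraries, 3 of 88 group values checked had a library far from the others, where chance gives about 1 in 20. They were Cox5a in whole cell D2 number 1 (1.093 FPKM), Cox5a in nuclear D2 number 7 (0.0927 FPKM) and Atp5a1 in RiboTag D2 labelled female number 2 (25.43 FPKM).

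The D2 minus D1 change differed between nuclear and whole cell libraries for 42 genes by edgeR's test of the difference, and the log2 difference was -4.351 for Cox5b, -3.383 for Atp5b, -3.272 for Atp5k, -3.147 for Uqcrfs1 and -3.133 for Atp5a1. Between nuclear and RiboTag libraries it differed for 48 genes, and the log2 difference was -4.726 for Cox5b, -3.934 for Atp5b, -3.661 for Atp5k, -3.381 for Atp5h and -3.38 for Atp5a1. Both counts use the same nuclear libraries. The background, the ribosomal RNA loci and the markers that moved with these libraries stand beside the values above, and their part was not tested.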

How the results depend on the processing

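Counts of called genes moved most with scaling, filters and libraries, and the cause was not tested. In nuclear libraries, the 22 genes higher in D1 became 56 without the FPKM filter, 53 without a filter on low counts, 55 with summed exons as length, 9 with the libraries of shared numbers only, 5 without the libraries with over 50% of counts on 10 genes and 0 without those of high background. In the last setting, 0 of all 8116 genes tested were higher in D1. The replicate block gave 0, but the numbers did not pair the samples, with correlations of -0.30 to 0.22 in nuclear, -0.26 to 0.13 in whole cell and -0.05 to 0.06 in RiboTag libraries, and it moved no other count of called genes. Genes higher in nuclear D2 were 2 with DESeq2's size factors, 2 with DESeq2 and 1 after background subtraction. In whole cell libraries, 11 were higher in D1 with the libraries of shared numbers only and 18 without those of high background. Over all genes, 652 of 15703 and 1014 of 15393 were higher in D1 in these settings. In RiboTag labelled female, no filter on low counts gave 1 higher in D2 and 1 higher in D1.

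Between nuclear and whole cell D1, genes higher in nuclear were 0 with the genes past all FPKM filters, with library sizes without the highest genes, after background subtraction and without either set of libraries. Genes higher in whole cell were 15 with DESeq2's size factors, 26 with DESeq2, 41 with the genes past all filters, 51 without the highest genes in the library sizes, 7 when centred on protein-coding genes, 22 after background subtraction, 2 with the repeat run kept apart, 38 without the libraries of high top-gene share and 26 without those of high background. Over all genes, 3039 of 36239 were higher in whole cell with DESeq2's size factors, 1303 of 4620 with the genes past all filters and 8017 of 36239 without the highest genes. With the genes past all filters, the other counts were 8 higher and 21 lower in RiboTag against whole cell D1, 21 and 14 in D2, 34 higher in RiboTag than nuclear D1, 3 higher and 36 lower in nuclear than whole cell D2, 10 higher and 38 lower in nuclear than RiboTag D2, and 14 and 16 for the differences of nuclear from whole cell and RiboTag. Library sizes without the highest genes gave 30 and 11, 42 and 6 for RiboTag against whole cell D1 and D2, 8 higher in nuclear than RiboTag D2, and 19 and 16 for the differences. Background subtraction gave 37 higher in RiboTag than whole cell D1 and 3 higher in nuclear than RiboTag D1, as did centring (3). DESeq2's size factors gave 5 higher in whole cell than RiboTag D2 and 29 for the difference of nuclear from RiboTag. Without the libraries of high top-gene share, 2 were higher in nuclear than whole cell D2, and the differences gave 5 and 1. Without those of high background, 41 were higher in RiboTag than whole cell D1, and the differences gave 7 and 30.

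Leaving out 1 library at a time gave 9 to 26 higher in nuclear D1 and 0 to 2 higher in nuclear D2, and 0 to 1 higher in D2 in RiboTag labelled male and female. Between nuclear and whole cell D1 it gave 1 to 3 higher in nuclear and 1 to 10 higher in whole cell, the 10 without nuclear D1 number 1. Nuclear against RiboTag D1 gave 3 to 5, nuclear against whole cell D2 0 to 1 and RiboTag against whole cell D2 3 to 5 for the direction with few calls. The difference of nuclear from RiboTag gave 31 to 56, the 31 without nuclear D1 number 1.

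Signs turned in RiboTag against whole cell with the genes past all filters, to -0.49 for Atp5g3, -0.75 for Atp5o, -0.29 for Cox5a, -0.14 for Cox6b1, -0.46 for Cox7b, -0.74 for Ndufa4, -0.013 for Ndufb11, -0.046 for Ndufb9, -0.40 for Ndufs1, -0.72 for Sdhb and -0.065 for Uqcrfs1 in D1, and to -0.44 for Atp5g3, -0.28 for Atp5k, -0.97 for Atp5o, -0.42 for Cox5a, -0.36 for Ndufa4, -0.26 for Ndufs1, -0.54 for Sdhb and -0.17 for Uqcrfs1 in D2. Without the highest genes in the library sizes, they turned to -0.41 for Atp5g2, -0.23 for Cox7a2l, -0.063 for Ndufa4, -0.39 for Ndufs6 and -0.048 for Sdhb in D1, and to -0.16 for Atp5g2, -0.14 for Atp5o and -0.086 for Ndufs6 in D2. Cox6b1 turned to 0.018 in nuclear against whole cell D2. Of the values of single genes under alternatives, 2699 kept their direction and side of the threshold and 221 lost the call.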
